A study of Mus musculus with 9 samples.

Results

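The guanylate-binding proteins (GBPs) and the immunity-related GTPases (IRGs) described here are 10 mouse genes, Gbp2, Gbp3, Gbp4, Gbp6, Gbp7, Gbp8, Gbp9, Irgm1, Irgm2 and Igtp, out of 47937 genes in the count table. They were chosen by name and matched to the table through GENCODE M21, and all 10 were among the 12536 genes that passed the filter on low counts. RNA was sequenced from CD4+ CD62L+ T cells purified from the spleens of C57BL/6 mice, in 3 groups of 3 libraries that are numbered 1, 4 and 5 in each group. Resting cells (Resting) received no stimulus according to their labels. Control cells (Th0_Ctrl) were pre-incubated for 15 min with the solvent DMSO and then stimulated with antibodies against CD3 and CD28 bound to the plate, and TEPP-46 cells (Th0_TEPP) were stimulated in that way after 15 min with TEPP-46. TEPP-46 is a small-molecule activator of pyruvate kinase M2, the enzyme that carries out the last step of glycolysis. Its dose is given for the study as 50 to 100 µM and not for single libraries. The sources used here give neither the duration of stimulation, nor whether the resting cells were cultured, nor how many animals stand behind the libraries. If libraries of a group share animals, the p-values below describe technical spread.

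GBPs and IRGs are large GTPases that cells make in quantity after exposure to interferons, above all interferon gamma. They gather on the membranes of vacuoles that hold bacteria or parasites, break these membranes open, and expose their contents to inflammasomes and to autophagy proteins. Irgm1, Irgm2 and Igtp (also called Irgm3) form the regulatory branch of the IRG family: they sit on the membranes of the cell itself and hold the effector IRGs and several GBPs in check there. Promoters of interferon-induced genes carry a gamma-activated site (GAS), an interferon-stimulated response element (ISRE) or both, and IRF1 is a factor that binds the latter.

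The 10 genes lie in clusters. On the GRCm38 assembly, Gbp7 (chr3:142530342-142550149), Gbp3 (chr3:142560026-142573209) and Gbp2 (chr3:142620602-142638008) follow one another on the plus strand of chromosome 3. Gbp8 (chr5:105014150-105139540), Gbp9 (chr5:105077630-105139539), Gbp4 (chr5:105115767-105139586) and Gbp6 (chr5:105270702-105293698) lie on the minus strand of chromosome 5. Genes on this strand start at their higher coordinate, so Gbp8 and Gbp9 start at neighbouring bases, close to the start of Gbp4. Irgm1 (chr11:48861968-48871683, minus strand), Igtp (chr11:58199556-58207591, plus strand) and Irgm2 (chr11:58199618-58222782, plus strand) lie on chromosome 11, where Igtp and Irgm2 overlap. All 10 are annotated as protein-coding.

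RefSeq promoter windows on GRCm38.p6, reaching from 250 bases before to 50 bases after the start site, were found for 6 of the 10 genes: Gbp2, Gbp3, Gbp7, Irgm1, Irgm2 and Igtp. Each of these windows was searched on both strands for the ISRE core GAAANNGAA and for the GAS TTCNNNGAA, where N stands for any base. An ISRE core was found in 6 of the 6 genes, against 9.76% of the 27025 genes with a window, and every one of these matches lay between 64 and 16 bases before the start site. Gbp3 has 2 RefSeq start sites, and only the window of the first holds the match. For Gbp7, Irgm2 and the second start of Gbp3, the bases from the RefSeq start onward were not found in a GENCODE M21 transcript of the gene. The Irgm2 window (chr11:58214727-58215026) lies inside the annotated gene, whose start is at chr11:58199618. A GAS was found in Gbp7, Irgm2 and Igtp, against 9.55% of all genes with a window. Windows with both motifs made up 1.07% of the 32851 windows, and Gbp7, Irgm2 and Igtp were among them. The ISRE cores of Gbp3, and likewise those of Irgm1, overlap each other, and no ISRE core overlaps a GAS in these windows. These are matches of letters and not measured binding sites.

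The 120 bases before the start site are printed for the 4 genes with the highest level per length among those with a window, since these bases hold every match found in them. Capitals mark the motif matches. Igtp is shown at chr11:58199436-58199555, Gbp2 at chr3:142620543-142620662, Gbp7 at chr3:142530216-142530335 and Irgm2 at chr11:58214857-58214976, each on the plus strand and read 5′ to 3′.
Igtp: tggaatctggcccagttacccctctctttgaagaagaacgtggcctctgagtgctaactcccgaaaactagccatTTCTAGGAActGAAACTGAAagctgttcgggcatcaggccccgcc
Gbp2: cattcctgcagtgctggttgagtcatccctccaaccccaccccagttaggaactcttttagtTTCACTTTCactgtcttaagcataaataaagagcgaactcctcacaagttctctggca
Gbp7: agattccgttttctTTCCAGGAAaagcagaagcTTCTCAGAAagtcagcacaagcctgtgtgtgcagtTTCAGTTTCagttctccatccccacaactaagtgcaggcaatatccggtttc
Irgm2: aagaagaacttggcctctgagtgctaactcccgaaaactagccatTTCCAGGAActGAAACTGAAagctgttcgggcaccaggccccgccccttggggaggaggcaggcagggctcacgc
In Igtp and Irgm2 the GAS is followed after a gap of 2 bases by the ISRE core in both genes. The windows of these genes could be aligned over 265 bases, of which 244 were identical (92.1%). In Gbp7 a pair of GAS matches lies upstream of the ISRE core, and Gbp2 has the ISRE core alone.

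**Figure D1:**
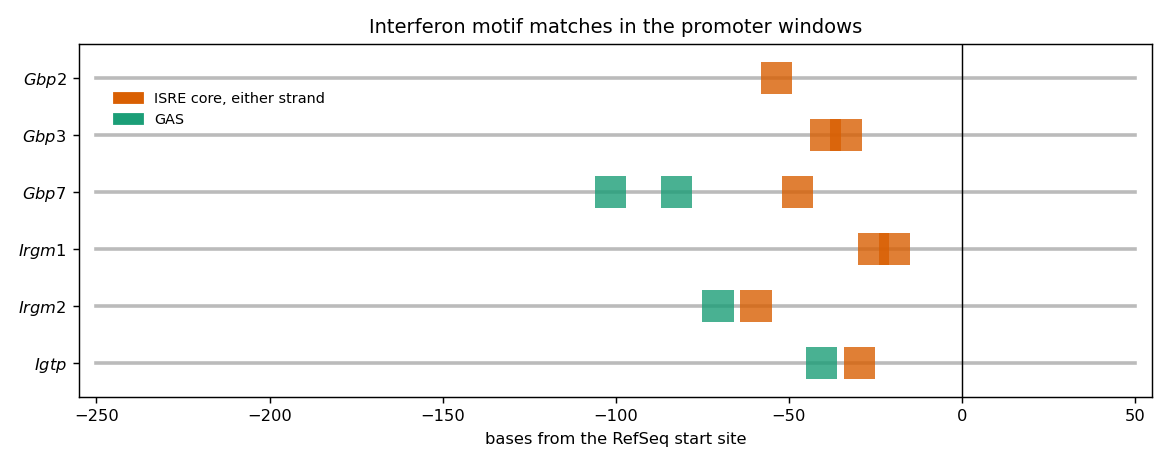
Positions of ISRE core (orange) and GAS (green) matches, in bases from the RefSeq start site at 0, in the promoter windows of the 6 genes with a window (grey lines). For Gbp3 the first of its windows is drawn. The ISRE cores lie between 64 and 16 bases before the start site, and GAS matches appear in Gbp7, Irgm2 and Igtp.

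Over all genes, the TEPP-46 libraries were less alike than those of the other groups. The correlation of log2 CPM across genes was 0.972 to 0.983 between control libraries, 0.937 to 0.977 between resting libraries, and 0.818 to 0.913 between TEPP-46 libraries. TEPP-46 replicate 1 correlated at 0.919 to 0.922 with the control libraries and at 0.830 to 0.850 with the resting libraries, whereas replicate 4 correlated at 0.765 to 0.774 with control and 0.832 to 0.836 with resting libraries. Replicate 5 lay nearer to the resting (0.884 to 0.890) than to the control libraries (0.829 to 0.841). The part of these differences between libraries in the results was not tested. Total counts per library ran from 2397304, in TEPP-46 replicate 4, to 5030643, and levels are given in CPM, the count in 1000000 after TMM scaling of the library size. A floor of 3 counts lay at 0.601 to 1.25 CPM, depending on the library, and covers counting error only. All 10 T cell markers examined, Cd3e and Cd4 among them, were counted in each group, with summed levels of 5639 to 9765 CPM in resting, 5015 to 6238 CPM in control and 8468 to 9935 CPM in TEPP-46 libraries. Markers of other spleen cells differed between the groups. The 9 B cell markers summed to 2543 to 3953 CPM in resting, 229.6 to 256 CPM in control and 737 to 1265 CPM in TEPP-46 libraries. The 6 neutrophil markers summed to 103 to 174 CPM in resting libraries, were at 0 in all control libraries, and stood at 0.822, 173 and 4.19 CPM in TEPP-46 replicates 1, 4 and 5. The 10 myeloid markers summed to 49.1 to 71.8, 21.3 to 34.0 and 24.7 to 89.0 CPM in the same order of groups, with Adgre1 and Marco at 0 in control libraries. Csf1r and Cd68, at means of 13.5 and 11.4 CPM, gave most of the control sum. Of 5 myeloid markers tested, 3 were lower in control than in resting cells and 1, Cd68, was higher (1.08 ± 0.36, adjusted p = 0.0460). Over all genes tested, 15.8% were lower and 15.5% higher. The 6 dendritic cell markers summed to 9.47 to 21.0, 8.84 to 17.3 and 8.22 to 32.6 CPM, with Itgax, Siglech and Clec9a at 0 in control libraries. Siglech and Clec9a gave only 1 read each over the resting libraries, and Zbtb46 averaged 7.36 CPM in resting, 12.4 CPM in control and 13.1 CPM in TEPP-46 libraries. The 6 NK cell markers summed to 21.6 to 97.6, 73.0 to 126 and 61.8 to 86.3 CPM. Nkg7, at a mean of 97.4 CPM, gave nearly all of the control sum, and Ncr1 and Klre1 were at 0 there. Of 3 NK cell markers tested, 2 were lower in control than in resting cells and 0 higher. They were Klrb1c (-5.61 ± 1.10, adjusted p = 0.00657) and Klrd1 (-5.51 ± 0.99, adjusted p = 0.00301), each with 1 read over the control libraries. Nkg7 did not pass (0.88 ± 0.53, adjusted p = 0.230). The 2 CD8 T cell markers summed to 9.01 to 22.1, 8.03 to 10 and 3.87 to 11.2 CPM in resting, control and TEPP-46 libraries. The 6 platelet and red cell markers summed to 2.80 to 9.73, 0.956 to 4.89 and 16.4 to 269.9 CPM, and the 9 RNA quality genes (Malat1, Neat1 and mitochondrial transcripts) to 9559 to 11835, 6325 to 6479 and 6569.7 to 16532 CPM, with TEPP-46 replicate 1 at 6569.7 and replicates 4 and 5 at 16142 and 16532 CPM.

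Igtp was the most abundant of the 10 transcripts per length in every library, and Gbp2 came next in every library. On the scale of CPM per kilobase of exon, Igtp stood at 177 ± 24.7 in resting, 386 ± 49.0 in control and 948 ± 455 in TEPP-46 cells (mean ± SD, n = 3). Gbp2 stood at 55.1 ± 12.5, 65.2 ± 13.8 and 317 ± 228 CPM per kilobase. The other 8 genes lay far below Igtp, between 4.94 ± 1.85 (Gbp6) and 36.5 ± 4.33 (Gbp4) in resting cells, between 4.89 ± 0.413 (Gbp6) and 19.2 ± 3.79 (Gbp4) in control cells, and between 22.1 ± 6.68 (Gbp6) and 71.3 ± 14.2 (Gbp4) in TEPP-46 cells. In resting cells the order below Gbp2 was Gbp4, Gbp7, Gbp8, Gbp9, Irgm1, Irgm2, Gbp3 and Gbp6, and neighbours in it were closer than the larger of their SDs. The order in TEPP-46 cells was Gbp4, Irgm2, Gbp7, Gbp9, Irgm1, Gbp8, Gbp3 and Gbp6, again with neighbours closer than the larger SD. In control cells the order was Gbp4, Gbp8, Gbp7, Irgm2, Gbp9, Gbp3, Irgm1 and Gbp6, and the steps from Gbp9 (11.6 ± 2.32) to Gbp3 (8.36 ± 1.52) and from Gbp3 to Irgm1 (5.09 ± 2.50) were larger than both SDs.

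Together the 10 transcripts made up a similar part of the counts in resting and control cells, and a larger part in TEPP-46 cells. Their summed level was 1427 ± 180.3 CPM in resting, 1433 ± 206 CPM in control and 4568 ± 1946 CPM in TEPP-46 cells (mean ± SD, n = 3). In TEPP-46 replicates 1, 4 and 5 the sum was 6688, 2862 and 4153 CPM, so the lowest of these lay above the highest resting or control library (1667 CPM). Igtp made up 23.0 to 27.1% of the summed counts of the 10 genes in resting libraries, 52.6 to 57.3% in control libraries and 39.7 to 43.8% in TEPP-46 libraries. In these samples of many cells, fewer cells of a type and less RNA per cell cannot be told apart.

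**Figure D2:**
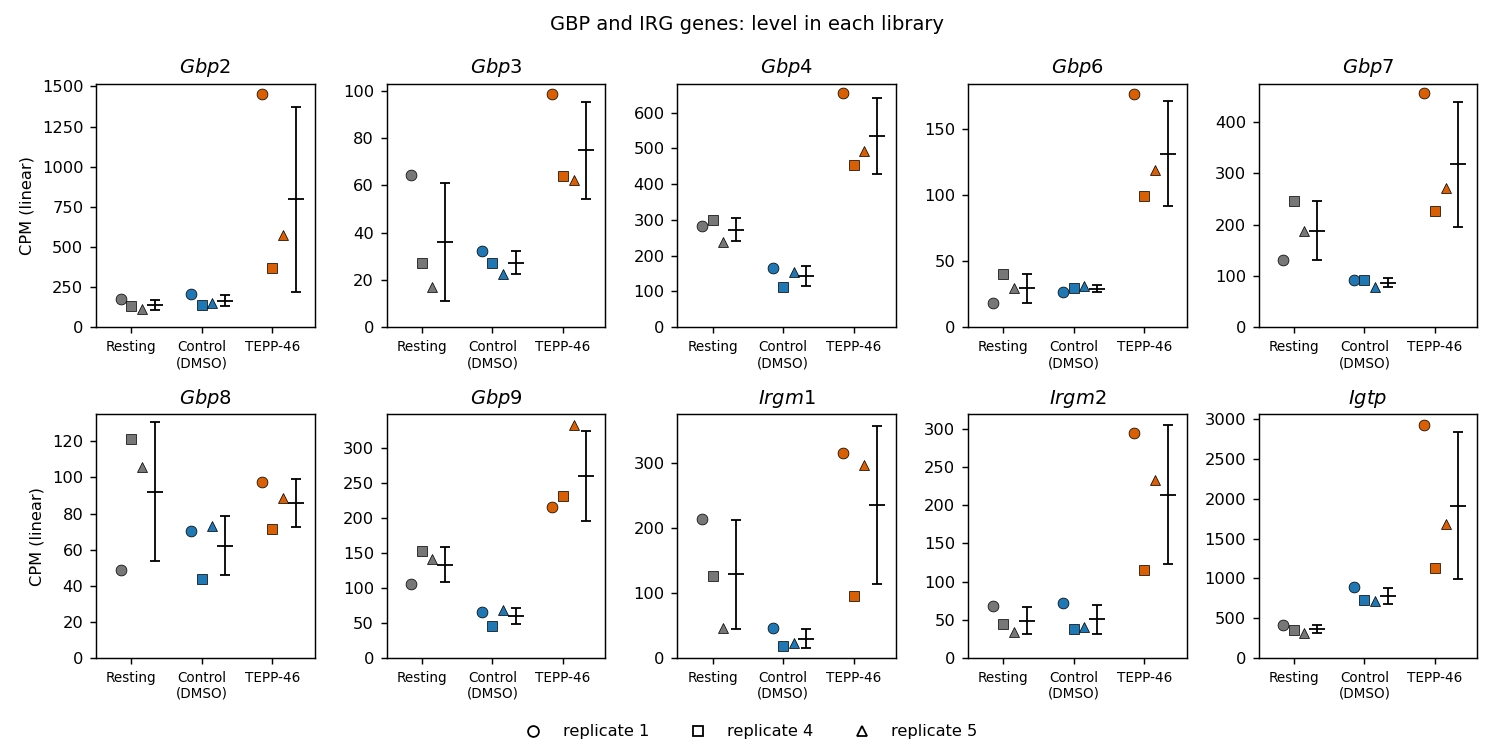
Level of each gene in CPM (linear axis, own scale per panel) in each of the 9 libraries, with replicates 1, 4 and 5 as circles, squares and triangles, and the group mean ± SD beside them. TEPP-46 libraries lie above all control libraries in 9 of the 10 panels, the exception being Gbp8.

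The comparison of TEPP-46 with control cells asks which transcripts differ when stimulation follows TEPP-46 rather than its solvent. The activity of pyruvate kinase M2 was not measured in these data. Of the 10 genes, 9 were higher in TEPP-46 cells by edgeR's quasi-likelihood test (Benjamini-Hochberg adjusted p below 0.05 over 12536 genes), none was lower, and Gbp8 did not pass. Lower calls also numbered 0 at an unadjusted p below 0.05, with DESeq2 and with limma-voom. Over all genes tested, 9.72% were called higher and 6.43% lower. The median log2 fold change was 1.99 over the 10 genes and 0.04 over all genes tested. In 9 of the 10 genes every TEPP-46 library lay above every control library, a pattern seen in 19.6% of all genes tested.

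Among the genes on chromosome 3, Gbp2 encodes a GBP that is anchored to membranes by a lipid tail and is recruited to parasite vacuoles. Its level was 173, 132 and 111 CPM in resting replicates 1, 4 and 5, 204, 138 and 150.1 CPM in the control replicates, and 1450.3, 369 and 573 CPM in the TEPP-46 replicates. The TEPP-46 libraries were above all others and differed widely among themselves, with replicate 1 far above the rest. The log2 fold change of TEPP-46 over control cells was 2.28 ± 0.45 (SE), or 4.86-fold (adjusted p = 0.0108), and it was 1.51 without TEPP-46 replicate 1. Gbp7, which has been linked to defence against intracellular bacteria, stood at 131, 246 and 187 CPM in resting, 91.6, 92.0 and 77.6 CPM in control, and 456, 226 and 271 CPM in TEPP-46 libraries. Control libraries were the lowest, and the TEPP-46 and resting libraries overlapped. Gbp7 was 3.65-fold higher in TEPP-46 than in control cells (log2 fold change 1.87 ± 0.31, adjusted p = 0.00598). The third gene of the cluster, Gbp3, stood at 64.3, 27.1 and 16.8 CPM in resting, 32.2, 27.3 and 22.3 CPM in control, and 98.7, 63.9 and 62.2 CPM in TEPP-46 libraries. Its TEPP-46 libraries were above the control libraries and overlapped with resting replicate 1. The difference from control cells was 1.46 ± 0.44 with an adjusted p of 0.0468, the nearest to the threshold among the 9 genes. The call was lost when any 1 control library, any 1 TEPP-46 library or resting replicate 4 was left out, with an adjusted p of at most 0.164.

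The genes on chromosome 5 split. Gbp4 stood at 282, 301 and 237 CPM in resting, 165, 111 and 154 CPM in control, and 654, 454 and 494 CPM in TEPP-46 libraries. None of its groups overlapped, with control cells lowest and TEPP-46 cells highest. Gbp4 was 3.72-fold higher in TEPP-46 than in control cells (1.90 ± 0.23, adjusted p = 0.00209). Gbp9 had the same order of groups, at 105, 153 and 141 CPM in resting, 66.0, 46.1 and 67.8 CPM in control, and 215, 231 and 333 CPM in TEPP-46 libraries. It was the one gene of the 10 for which TEPP-46 replicate 1 was not the highest of its group. Its difference from control cells was 2.11 ± 0.26, or 4.33-fold (adjusted p = 0.00209). Gbp6 stood at 18.4, 40.5 and 29.3 CPM in resting, 26.4, 29.9 and 31.1 CPM in control, and 176, 99.4 and 119 CPM in TEPP-46 libraries. Resting and control libraries overlapped, and each TEPP-46 library was above both. Gbp6 was 4.51-fold higher in TEPP-46 than in control cells (2.17 ± 0.32, adjusted p = 0.00351).

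Gbp8 was the exception. It stood at 48.5, 121 and 106 CPM in resting, 70.4, 43.5 and 73.0 CPM in control, and 97.3, 71.4 and 88.6 CPM in TEPP-46 libraries. The 3 groups overlapped. Its log2 fold change of TEPP-46 over control cells was 0.46 ± 0.34 (adjusted p = 0.356), with an unadjusted 95% interval from -0.29 to 1.21, so a difference of up to 1.21 on the log2 scale is within the interval.

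All 3 regulatory IRG genes were higher in TEPP-46 than in control cells. Irgm1 encodes a regulator found on the Golgi, lysosomes and mitochondria that mice need to resist mycobacteria. It stood at 214, 127 and 45.9 CPM in resting, 46.2, 19.1 and 23.3 CPM in control, and 316, 95.7 and 298 CPM in TEPP-46 libraries. All TEPP-46 libraries were above the control libraries, with replicate 4 well below the other TEPP-46 libraries, and the resting libraries spread over most of the range. The difference between TEPP-46 and control cells, 3.0 ± 0.62 or 8.0-fold (adjusted p = 0.0127), was the largest of the 10 genes. Irgm2, a regulator on the Golgi, stood at 68.3, 44.4 and 34.7 CPM in resting, 72.1, 38.5 and 40.9 CPM in control, and 295, 115 and 233 CPM in TEPP-46 libraries. Resting and control libraries overlapped, and every TEPP-46 library lay above them. Irgm2 was 4.25-fold higher in TEPP-46 than in control cells (2.09 ± 0.40, adjusted p = 0.00952). Igtp, a regulator on the endoplasmic reticulum and lipid droplets, stood at 409.8, 356 and 310.0 CPM in resting, 893, 734 and 711 CPM in control, and 2930.0, 1136 and 1682 CPM in TEPP-46 libraries. Its groups did not overlap and rose from resting through control to TEPP-46 cells, and in none of the other 9 genes did the groups stand in this order without overlap. Igtp was 2.46-fold higher in TEPP-46 than in control cells (1.30 ± 0.32, adjusted p = 0.0244), the smallest of the 9 called differences, and it was 0.85 without TEPP-46 replicate 1.

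**Figure D3:**
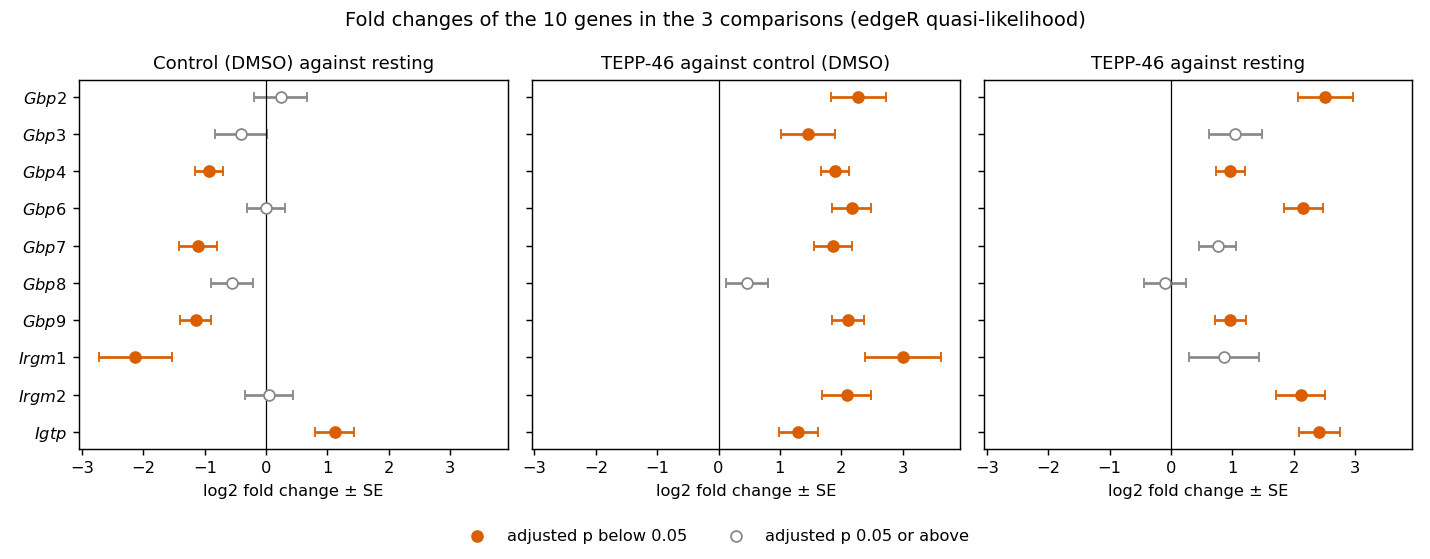
Log2 fold change ± SE of the 10 genes in the comparisons of control with resting, TEPP-46 with control and TEPP-46 with resting cells, from edgeR's quasi-likelihood test. Filled points have an adjusted p below 0.05. Filled points number 5, 9 and 6 in the 3 panels, and only the first panel has filled points on both sides of 0.

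TEPP-46 replicate 1 gave the highest TEPP-46 level for 9 of the 10 genes, and replicate 4 the lowest for 8, the exceptions being Gbp3 and Gbp9. Without replicate 1, 8 of the 10 genes were called higher than in control cells, and without replicate 4 also 8. Gbp4, Gbp6, Gbp7 and Gbp9 were called in each of the 9 fits that left out 1 library. The count fell to 4 without control replicate 4 and to 4 without control replicate 5, while the calls over all genes fell from 2025 to 535 and 395. Calls over all genes were 592 without control replicate 1 and 647 without TEPP-46 replicate 5, and 4407 without TEPP-46 replicate 1. Without TEPP-46 replicates 1, 4 and 5 in turn, 8, 8 and 7 of the 10 genes were called. Gbp2, Irgm1 and Irgm2 were lost only without control replicate 4 or control replicate 5, at adjusted p of at most 0.0607, 0.0689 and 0.0580. Igtp was lost when any 1 control library or TEPP-46 replicate 5 was left out (at most 0.104). The markers of other cells moved with the comparison as well: 6 of 8 B cell and 3 of 5 myeloid markers tested were called higher in TEPP-46 than in control cells, beside 9.72% of all genes tested. So were 2 of 3 neutrophil, 2 of 2 platelet and red cell and 1 of 3 NK cell markers tested. Of the 2 dendritic cell markers and 1 CD8 T cell marker tested, 0 were called. TEPP-46 replicate 1 had 24.7 CPM of myeloid, 8.22 CPM of dendritic cell and 0.822 CPM of neutrophil markers, the lowest of the TEPP-46 libraries. In replicate 4 these stood at 89.0, 32.6 and 173 CPM. The B cell markers of replicate 1 summed to 870.3 CPM, against 229.6 to 256 CPM in control libraries. The immunoglobulin transcript Ighm gave 849 CPM of this sum, with Igkc at 5.76 CPM. Its platelet and red cell markers summed to 16.4 CPM, against 0.956 to 4.89 CPM in control libraries. The part of RNA from B cells and other cells in the results was not tested.

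**Figure D4:**
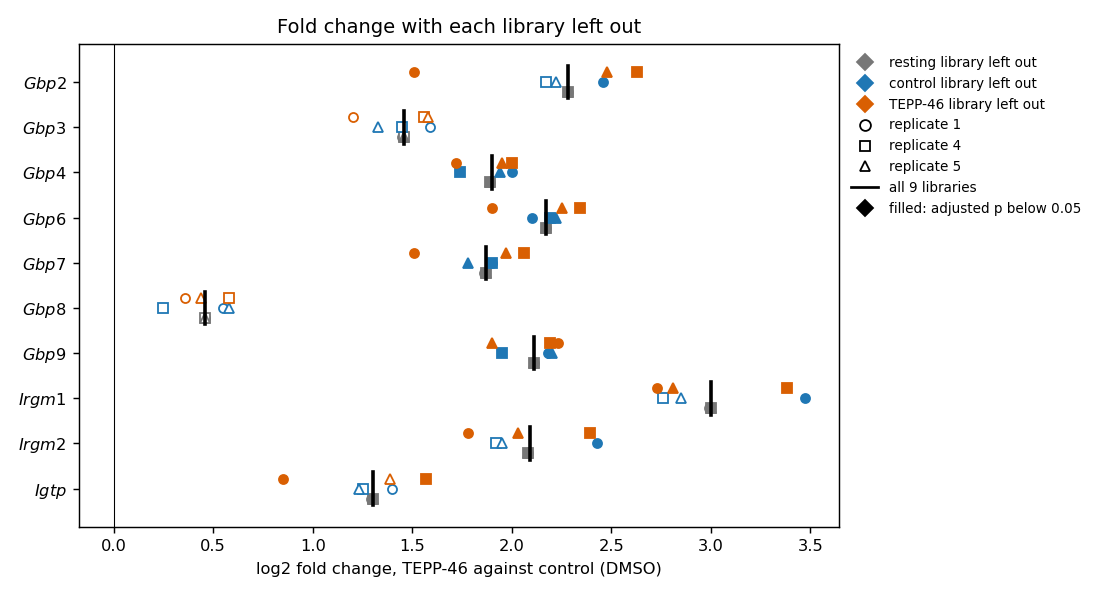
Log2 fold change of TEPP-46 over control cells for each gene when 1 of the 9 libraries is left out (colour for group, shape for replicate), with the value from all 9 libraries as a black line and filled points where the adjusted p was below 0.05. All points lie above 0, leaving out TEPP-46 replicate 1 gives the lowest value for Gbp2 (1.51) and Igtp (0.85), and Gbp8 has no filled point.

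Control cells, stimulated in the presence of DMSO, differed from resting cells in 5 of the 10 genes. Relative to resting cells, Igtp rose, and Gbp4, Gbp7, Gbp9 and Irgm1 fell, while the other 5 genes did not pass the test. Over all genes tested, 15.5% were called higher and 15.8% lower, so 1 higher and 4 lower of 10 stand beside shares of that size. Igtp was 2.17-fold higher in control cells (log2 fold change 1.12 ± 0.32, adjusted p = 0.0234), without overlap between the groups. This call was lost when resting replicate 4, resting replicate 5 or any 1 control library was left out (adjusted p of at most 0.0851). Gbp9 fell by 1.15 ± 0.25 (adjusted p = 0.00774), Gbp7 fell by 1.11 ± 0.31 (adjusted p = 0.0203) and Gbp4 fell by 0.93 ± 0.23 (adjusted p = 0.0124), again without overlap. Such a lack of overlap is common in this comparison: of the 12536 genes tested, 3656 were higher and 3764 lower without overlap, beside 1 and 3 of the 10. The call on Gbp7 was lost in the same 5 fits as that on Igtp (at most 0.0863), and the call on Gbp4 without control replicate 4 (0.0645). Irgm1 fell by 2.13 ± 0.60 (adjusted p = 0.0227), although control replicate 1 (46.2 CPM) was level with resting replicate 5 (45.9 CPM), and the call was lost without resting replicate 1 or 4 or control replicate 4 or 5. Gbp9 was the gene called in all 9 fits that left out 1 library, and the number called ranged from 1 to 5. It was lowest without control replicate 4, at 2 without resting replicate 4 or control replicate 5, and at 3 without resting replicate 5 or control replicate 1.

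Among the 5 genes that did not pass, the values between control and resting cells were 0.24 ± 0.43 for Gbp2 (adjusted p = 0.701), -0.01 ± 0.31 for Gbp6 (0.985), 0.04 ± 0.39 for Irgm2 (0.951), -0.41 ± 0.43 for Gbp3 (0.506) and -0.56 ± 0.34 for Gbp8 (0.227). For Gbp3 the sign turned, to 0.32, without resting replicate 1. The unadjusted 95% intervals were wide, from -0.71 to 1.20 for Gbp2, from -0.70 to 0.68 for Gbp6 and from -0.82 to 0.90 for Irgm2.

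Set against resting cells, TEPP-46 cells had higher levels of Gbp2, Gbp4, Gbp6, Gbp9, Irgm2 and Igtp, which is 6 of the 10 genes, and lower levels of none (0 also at an unadjusted p below 0.05, with DESeq2 and with limma-voom). Over all genes tested, 6.37% were called higher and 3.92% lower in this comparison, which shares its libraries with both comparisons above. The differences were 2.52 ± 0.45 for Gbp2 (adjusted p = 0.00963), 2.42 ± 0.33 for Igtp (0.00276), 2.16 ± 0.32 for Gbp6 (0.00377) and 2.12 ± 0.40 for Irgm2 (0.0112). They were smaller for Gbp4 (0.97 ± 0.23, adjusted p = 0.0265) and Gbp9 (0.97 ± 0.25, 0.0378), which had also fallen between resting and control cells. The call on Gbp9 was lost in 7 of the 9 fits that left out 1 library, those without any 1 resting library, any 1 control library or TEPP-46 replicate 5, and in the fit of only these groups. The call on Gbp4 was lost without resting replicate 4, resting replicate 5 or control replicate 5 and in the fit of only these groups, and that on Irgm2 without resting replicate 4 or 5. Without TEPP-46 replicate 1 the difference for Gbp2 was 1.76. Gbp3 (1.05 ± 0.43, 0.153), Gbp7 (0.76 ± 0.30, 0.141), Irgm1 (0.87 ± 0.57, 0.367) and Gbp8 (-0.10 ± 0.34, 0.881) did not pass. Without resting replicate 1 the difference for Gbp3 was 1.77 and passed (adjusted p = 0.0177), and with library quality weights in limma-voom it was 1.48 and passed (0.00314). With those weights Irgm1 also passed, at 1.68 (adjusted p = 0.0145). The value for Irgm1 did not pass in the fits that left out 1 library and ranged there from 0.46, without resting replicate 5, to 1.45, without resting replicate 1. Gbp2, Gbp6 and Igtp were called in each of the 9 fits that left out 1 library, and the number called fell to 3 without resting replicate 4 or resting replicate 5.

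Several of these genes share sequence, which limits how far their counts can be told apart. Of the 50-base stretches in the transcripts of Gbp6, 70.7% also occur in a transcript of another gene, chiefly the predicted gene Gm43302 (65%) and Gbp10 (45.9%), and 29% of the Gbp6 exon bases lie in exons of Gm43302. The share was 18.1% for Gbp8, 12.7% for Gbp7, which overlaps the pseudogene Gm43802, and 11.8% for Igtp, all of it with Irgm2. It was 8.05% for Gbp9, 7.83% for Irgm2, 7.78% for Gbp4, 3.75% for Gbp3, 2.03% for Gbp2 and 0.379% for Irgm1. Exons of Igtp and Irgm2 overlap over 162 bases (8.01% of the Igtp exons), and those of Gbp4 and Gbp8 over 61 bases. When such genes were counted together, a setting chosen after the annotation was seen, Gbp6 with Gbp10 and Gm43302 differed by 2.38 ± 0.35 between TEPP-46 and control cells (adjusted p = 0.00382). Igtp with Irgm2 differed by 1.36 ± 0.32 (adjusted p = 0.0218), and Gbp4 with Gbp8 and Gbp9 by 1.73 ± 0.23 (adjusted p = 0.00258). The values of Gbp6 on its own are therefore uncertain as to the gene they come from.

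Over the 9 libraries, the levels of the 10 genes were compared with one another. The correlation of a gene's standardised log2 CPM with the mean of the other 9 genes was 0.95 for Gbp4, 0.92 for Irgm2, 0.90 for Gbp2, 0.89 for Gbp6, 0.87 for Gbp7, 0.84 for Gbp9, 0.81 for Irgm1, 0.76 for Gbp3, 0.68 for Igtp and 0.36 for Gbp8. Outside the 10 genes, those most like their mean profile by Pearson's r over the 9 libraries were Clic1 (0.974), Snx20 (0.966), Tgtp1 (0.965), Parp14 (0.963) and Trim25 (0.957). Clic1 encodes a chloride intracellular channel protein, Snx20 a sorting nexin, Tgtp1 an effector IRG, Parp14 an ADP-ribosyltransferase and Trim25 a ubiquitin ligase of antiviral sensing. These r describe points that share libraries and groups and carry no test.

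Most of the other GBP and IRG family genes that could be tested were higher in the TEPP-46 comparison too. Of 17 listed, 12 could be tested, and 8 were higher and none lower in TEPP-46 than in control cells, with a median log2 fold change of 2.13. Among all genes tested, the shares called were 9.72% higher and 6.43% lower. Lower calls on this list were 0 as well at an unadjusted p below 0.05, with DESeq2 and with limma-voom. The effector IRG genes Tgtp2 (3.33 ± 0.36, adjusted p = 0.00145), Ifi47 (2.07 ± 0.24, 0.00189), Tgtp1 (2.90 ± 0.46, 0.00514) and Iigp1 (3.01 ± 0.49, 0.00547) led the list and were called in all 9 fits. Tgtp1 and Tgtp2 are near-identical copies, so the division of reads between them is uncertain. The number of genes called on this list ranged from 5 to 10 in those fits. In TEPP-46 against resting cells, 8 of the 12 were higher and none lower, beside 6.37% and 3.92% of all genes tested. Iigp1 (3.76 ± 0.51, adjusted p = 0.00271), Tgtp2 (1.77 ± 0.34, 0.0120) and Tgtp1 (2.01 ± 0.45, 0.0208) passed there, and Ifi47 (0.57 ± 0.23, 0.152) did not. Without resting replicate 5 the calls on Tgtp1 and Tgtp2 were lost, and without resting replicate 4 that on Tgtp1. Between control and resting cells, 3 of the 12 rose and 2 fell, beside 15.5% and 15.8% of all genes tested: Ifi47 fell by 1.50 ± 0.24 (adjusted p = 0.00179) and Tgtp2 fell by 1.55 ± 0.34 (0.00748), while Gm4951 (3.83 ± 0.76, 0.00486) and Gbp5 (2.63 ± 0.58, 0.00748) were among those that rose. Gbp5 stood at 11, 8.94 and 11.2 CPM in resting, 62.3, 72.2 and 59.2 CPM in control, and 160.1, 25.5 and 41.6 CPM in TEPP-46 libraries. Its TEPP-46 libraries fell on both sides of the control libraries (0.24 ± 0.53, adjusted p = 0.779).

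Of 19 genes for interferon receptors and JAK-STAT signalling, all of them tested, 8 were higher and none lower in TEPP-46 than in control cells (median 0.56). These counts stand beside 9.72% higher and 6.43% lower of all genes tested. Lower calls on this list were also 0 at an unadjusted p below 0.05, with DESeq2 and with limma-voom. The transcription factor gene Irf1 stood at 380.2, 314 and 194 CPM in resting, 166, 116 and 135 CPM in control, and 472, 428 and 410.1 CPM in TEPP-46 libraries. Its TEPP-46 libraries were close together and above all others, and the control libraries were the lowest. The difference from control cells was 1.65 ± 0.26 (adjusted p = 0.00516). Irf9, which encodes a DNA-binding subunit of an interferon-activated complex (1.49 ± 0.19, adjusted p = 0.00233), the receptor chain gene Ifnar1 (1.55 ± 0.20, 0.00233) and the kinase gene Jak1 (1.67 ± 0.25, 0.00384) were higher too. These 4 genes were called in each of the 9 fits that left out 1 library, and the number called on the list ranged from 5 to 12. In TEPP-46 against resting cells, 6 of the 19 were higher and none lower, beside 6.37% and 3.92% of all genes tested. Ifnar1 passed there (1.01 ± 0.20, adjusted p = 0.0125), a call lost without resting replicate 4 or 5. Jak1 (-0.25 ± 0.24, 0.558), Irf9 (0.28 ± 0.18, 0.374) and Irf1 (0.56 ± 0.26, 0.197) did not pass.

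Ifng, which encodes interferon gamma itself, gave few reads. Its level was 7.21, 12.6 and 10.3 CPM in resting, 3.18, 0.956 and 1.51 CPM in control, and 4.11, 0 and 0.967 CPM in TEPP-46 libraries, values near the floor of 3 counts in the stimulated cells. The value between TEPP-46 and control cells was -0.05 ± 0.88 (adjusted p = 0.976). Between control and resting cells it fell by 2.40 ± 0.79 (adjusted p = 0.0426), a call that held in 2 of the 9 fits that left out 1 library. Of the chains of its receptor, Ifngr1 stood at 1751, 252 and 357 CPM in resting, 102, 211 and 139.8 CPM in control, and 918, 1418 and 2247 CPM in TEPP-46 libraries. It was higher in TEPP-46 than in control cells (3.34 ± 0.71, adjusted p = 0.0139), with resting replicate 1 far above the other resting libraries. That call was lost without control replicate 1 or 5 or TEPP-46 replicate 5 (adjusted p of at most 0.0705). The difference of Ifngr1 between TEPP-46 and resting cells, 0.96 ± 0.65, did not pass (adjusted p = 0.382). Between TEPP-46 and control cells, Ifngr2 (-0.31 ± 0.22, adjusted p = 0.351) and Socs1, a feedback inhibitor of the pathway (-0.32 ± 0.33, 0.518), did not pass.

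Between control and resting cells, 4 genes of the signalling list rose and 7 fell (median -0.15), beside 15.5% and 15.8% of all genes tested. Jak1 fell by 1.92 ± 0.25 (adjusted p = 8.19e-04), Irf9 fell by 1.21 ± 0.19 (0.00156) and Irf1 fell by 1.09 ± 0.26 (0.0108), and the call on Irf1 was lost without control replicate 4 or 5. Irf8 rose (3.97 ± 0.62, adjusted p = 0.00164) and so did Socs1 (0.96 ± 0.33, 0.0489), whose call held in 2 of the 9 fits that left out 1 library. Ifngr1 fell by 2.38 ± 0.68 (adjusted p = 0.0235), and by 1.01 without resting replicate 1, where the call was lost. Ifngr2 (-0.33 ± 0.22, adjusted p = 0.268) did not pass.

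Of 20 other genes known to be induced by interferon gamma, 16 could be tested, and 9 were higher and none lower in TEPP-46 than in control cells (median 0.94). The shares over all genes tested were 9.72% higher and 6.43% lower. On this list 1 gene was lower at an unadjusted p below 0.05, 1 with DESeq2 and 1 with limma-voom. Psmb10, a subunit of the immunoproteasome (1.58 ± 0.28, adjusted p = 0.00782), Parp14 (1.47 ± 0.27, 0.00881), the peptide-loading gene Tapbp (1.17 ± 0.22, 0.00900) and the peptide transporter gene Tap2 (1.30 ± 0.24, 0.00911) led the list. Psmb10 was called in each of the 9 fits that left out 1 library and the others in 7 or 8. The number called on the list fell to 1 without control replicate 4. In TEPP-46 against resting cells, 6 of the 16 were higher and none lower, beside 6.37% and 3.92% of all genes tested. Parp14 passed there (1.12 ± 0.27, adjusted p = 0.0289), a call that held in 4 of the 9 fits. Psmb10 (-0.26 ± 0.27, 0.587), Tapbp (0.54 ± 0.22, 0.142) and Tap2 (0.48 ± 0.24, 0.242) did not pass. Cxcl9, Cxcl11 and Ido1 were counted at 0 in every library. Between control and resting cells 2 of the 16 rose and 3 fell, shares near the 15.5% and 15.8% of all genes tested: Psmb10 fell by 1.84 ± 0.28 (adjusted p = 0.00156) and Tap2 fell by 0.82 ± 0.24 (0.0267), while Batf2 (1.44 ± 0.44, 0.0316) and Lap3 (1.32 ± 0.45, 0.0461) rose. Apart from Psmb10, these held in 2 to 4 of the 9 fits.

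Among the partners that act with GBPs and IRGs at vacuoles, the counts were small. Of 5 inflammasome genes tested (8 listed), 3 were higher in TEPP-46 than in control cells, beside 9.72% of all genes tested. They were Casp1 (1.64 ± 0.32, adjusted p = 0.0106), the adaptor gene Pycard (1.07 ± 0.25, 0.0202) and the pore-forming gene Gsdmd (1.20 ± 0.28, 0.0212). All 3 calls were lost without control replicate 4 or without control replicate 5. None of the 5 was lower by edgeR, at an unadjusted p below 0.05, with DESeq2 or with limma-voom (0 each). Casp1 was also higher in TEPP-46 than in resting cells (1.14 ± 0.31, adjusted p = 0.0457), a call that held in 1 of the 9 fits. Pycard (0.33 ± 0.25, 0.438) and Gsdmd (0.30 ± 0.28, 0.538) did not pass there. Between control and resting cells 2 of the 5 fell, beside 15.8% of all genes tested. Gsdmd fell by 0.91 ± 0.28 (adjusted p = 0.0340) and Pycard fell by 0.74 ± 0.25 (0.0440), calls that held in 4 and 3 of the 9 fits that left out 1 library. Another list held 13 genes for the conjugation of autophagy proteins and for partners in the targeting of vacuoles, such as Sqstm1. Of these, 2 were higher in TEPP-46 than in control cells (median 0.23), beside 9.72% of all genes tested. They were Map1lc3b (1.18 ± 0.27, adjusted p = 0.0191), whose product is the membrane-bound autophagy marker LC3B, and Gabarapl2 (0.80 ± 0.23, 0.0405). Both calls were lost when any 1 control library was left out. None of the 13 was lower by edgeR or limma-voom (0 each), and 2 were at an unadjusted p below 0.05 and with DESeq2. Neither Map1lc3b (-0.39 ± 0.27, adjusted p = 0.382) nor Gabarapl2 (0.03 ± 0.23, 0.949) passed between TEPP-46 and resting cells. Between control and resting cells, where 15.5% of all genes tested rose and 15.8% fell, 1 of the 13 rose, Gabarapl1 (1.96 ± 0.41, adjusted p = 0.00633), and 5 fell, led by Map1lc3b (fell by 1.57 ± 0.27, 0.00251), Sqstm1 (fell by 1.07 ± 0.30, 0.0220) and Atg7 (fell by 0.76 ± 0.22, 0.0248), the last of which held in 3 of the 9 fits. The 5 genes for the enzymes that attach and process lipid tails (Fnta, Fntb, Pggt1b, Rce1 and Icmt) gave 0 calls in any comparison by edgeR, DESeq2 and limma-voom, and 0 at an unadjusted p below 0.05 by edgeR.

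**Figure D5:**
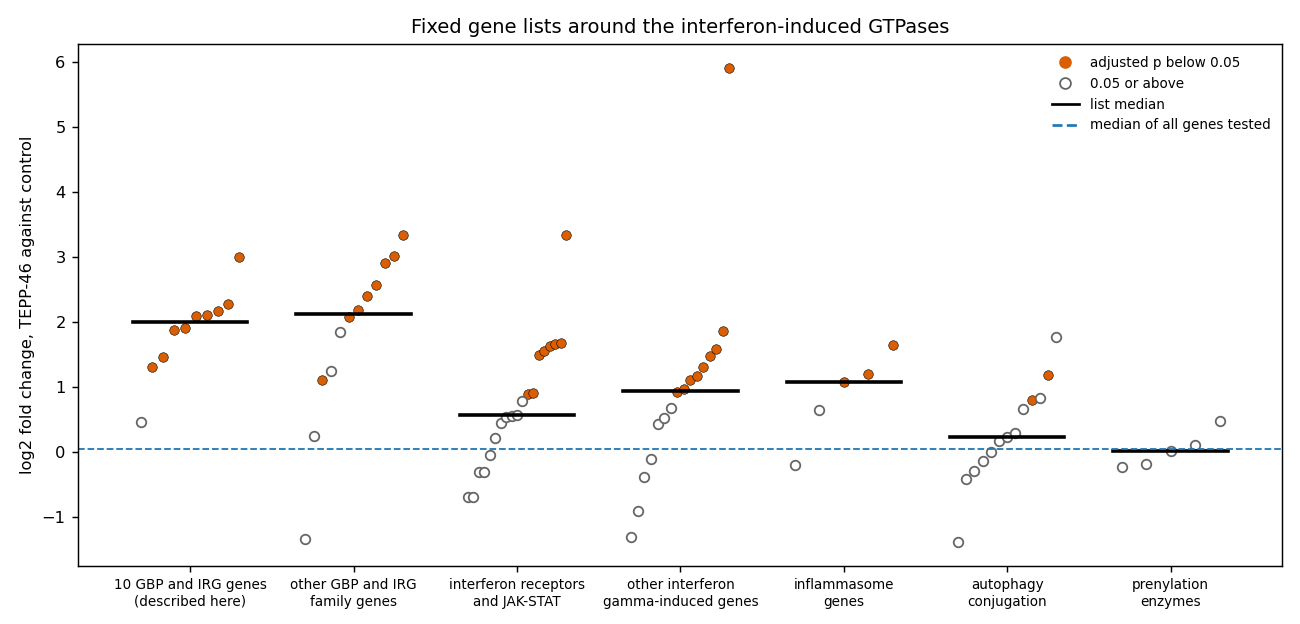
Log2 fold change of TEPP-46 over control cells for the tested genes of each list (points, ordered by value within a list), with filled points for an adjusted p below 0.05, the list median as a black line and the median of all genes tested (0.04) as a dashed line. The medians are 1.99 for the 10 GTPase genes, 2.13 for the other family genes, 0.94 for other genes induced by interferon gamma and 0.01 for prenylation enzymes. The point near 6 is Ciita, with counts of 0, 5 and 0 in the control libraries, whose size depends on the fit and is no measured bound.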

How the data were processed

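RNA was measured in 9 libraries of mouse CD4+ T cells, 3 in each of the groups Resting, Th0_Ctrl and Th0_TEPP, with groups taken from the sample titles. The values are raw counts of reads for each gene, which the authors deposited as whole numbers with no scaling. Per the submitters' processing notes, the build was GRCm38 and DESeq2 was used. Aligner, counting program, strand setting and annotation release: not given in the sources used here, so reads of overlapping genes on opposite strands cannot be told apart.

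Of 47937 Ensembl identifiers, 47310 were paired with a GENCODE M21 symbol. In R 4.3.3, edgeR 4.0.16 was used with filterByExpr (minimum count 10, minimum total 15), TMM factors, 1 quasi-likelihood fit of all 9 libraries by group (glmQLFit, glmQLFTest), two-sided tests, and Benjamini-Hochberg adjustment over 12536 genes at 0.05. The fit was run on simulated counts in which all groups had the same spread. The TEPP-46 libraries were less alike than the others, so that run cannot show how well the p-values hold here. CPM is on TMM-scaled library sizes, log2 CPM for correlations used a prior count of 2, and levels per kilobase used the union of exons. The main fit did not pair libraries by replicate number, since the labels do not say what the numbers mark. The correlation of same-numbered deviations from the group means ran from -0.12 to 0.09. It was 0.06, 0.04 and 0.09 between control and TEPP-46 replicates 1, 4 and 5, and -0.11, -0.09 and -0.12 between resting and TEPP-46 replicates. Deviations from means of 3 libraries cannot tell whether animals were shared. Alternatives were DESeq2 1.42.0, limma-voom (limma 3.58.1) with and without quality weights, other scaling and filters, only the groups compared, a replicate block, leaving out each library, and transcript length. All 10 members were reported. From each context list, up to 4 called genes were named in order of adjusted p in the TEPP-46 and in the control comparison, with Irf1, Socs1, Ifng, Ifngr1 and Ifngr2 always named; a gene that this rule would name is not reported here, and other genes were named after their values were seen. The members and lists were chosen with earlier results of these data known. Protein sequences were not used here.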

Additional observations from a re-analysis of the deposited data

How the results depend on the processing

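The number of the 10 genes called was 5 between control and resting, 9 between TEPP-46 and control, and 6 between TEPP-46 and resting cells. Over DESeq2, limma-voom, quality weights, 3 other scalings, 2 other filters and a fit of only the groups compared, it ran from 5 to 6, from 8 to 9 and from 4 to 8. Leaving out 1 library gave 1 to 5, 4 to 9 and 3 to 6. Calls over all genes then ran from 2316 to 5194, from 395 to 4407 and from 426 to 1897. With a replicate block it was 5, 9 and 4 (Gbp4 and Gbp9 were lost in the last), and the calls over all genes were 3339, 1384 and 705 against 3914, 2025 and 1289. Libraries did not correlate best with their own number throughout, and whether same-numbered libraries share animals is not known. Calls over all genes also moved by over 1.5 times with DESeq2 (3057 between TEPP-46 and control, 2090 between TEPP-46 and resting), with quality weights (7315, 6164 and 3360) and with only the groups compared (400 between TEPP-46 and resting). Scaling by total counts alone shifted the median of all genes by 0.11 between control and resting and by -0.13 between TEPP-46 and control cells, where the share of calls that were higher was 43.8% against 60.2%. All 10 genes kept their positive sign in that comparison under every setting, and Gbp3 lost its call with total counts or RLE factors. Counted together with Gbp4 and Gbp9, Gbp8 took the value of the 3 genes, 0.82 against -0.10 alone between TEPP-46 and resting cells. With the longest transcript as the length, Gbp4 stood at 60.2, 31.6 and 118 CPM per kilobase in resting, control and TEPP-46 cells, above Gbp2 in resting cells. Each group had 3 libraries, and totals were as low as 2397304 counts. Whether this kept Gbp8 from being called was not tested. The cause of the losses was not tested either.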
